A study of Homo sapiens with 20 samples.

Results

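A pair of control states of the LNCaP line were compared by RNA-seq: cells transfected with a nontarget siRNA pool, and uninduced stable lines that carry a doxycycline-inducible EHMT1 transgene. The comparison used 10 of the 20 samples of the series, namely the 2 siNTC samples and the 8 columns of the 4 stable lines without doxycycline. Columns 1 and 2 of a line were summed, which gave 6 samples, and genes were joined on their Ensembl identifiers. LNCaP is a human androgen-responsive line of prostate adenocarcinoma, and EHMT1 (also called GLP) is a histone H3 lysine 9 methyltransferase. The series itself asks what EHMT1 does, with siRNA against it in one experiment and its forced expression in the other. The siNTC cells received 20 nmol/L of the nontarget pool for 2 days. The stable lines had been infected with lentivirus carrying V5-tagged EHMT1 as wild type (WT) or with either or both of a pair of neighbouring lysines changed to arginine (K450R, K451R and K450RK451R), selected with puromycin and kept in tetracycline-free serum. Their uninduced samples are titled Veh, and another of their labels calls them untreated. The control groups thus share the parental line and the RPMI medium with serum, and they differ in transfection, lentivirus, selection, serum type and experiment. These factors cannot be told apart here, because each of them goes with the group. Both experiments used the same kit for total RNA.

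As background, several programs that run through the results respond to how cells are kept. Hypoxia-inducible factors (HIF) are degraded while oxygen is plentiful and otherwise switch on genes for glycolysis, glucose uptake and angiogenesis, and dense cultures can become short of oxygen. ATF4 raises amino acid synthesis and stress genes when cells lack nutrients, immediate-early genes answer growth factors and stress within minutes, and interferon-stimulated genes answer foreign nucleic acids, including some transfected RNA. Whether any of these inputs differed between the groups was not measured.

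The 6 samples held 5593400 to 12407739 counts, and 3 counts, used here as a floor of detection, were worth 0.242 to 0.536 CPM, the unit of counts scaled for library size. In chi-square tests the 2 columns of each line differed by no more than counting noise, with a statistic of 0.995 to 1.02 for each degree of freedom over all 8 stable-line conditions, and each line was therefore counted as 1 sample. The 2 siNTC samples differed by 61.6, and by 6.58 when 2 pseudogenes that resemble ribosomal RNA were left out. These pseudogenes took 0.820% of the counts of siNTC replicate 1, 10.0% of replicate 2 and 0.0313% to 0.0547% of the lines. Both groups carried luminal prostate markers, with a summed level of 7219 and 7261 CPM in siNTC and 12930 to 13700 CPM in the lines, where CPM are scaled by TMM here and throughout. Markers of immune cells summed to at most 0.617 CPM, those of endothelium to at most 8.66 CPM and those of basal epithelium to at most 24.8 CPM, with 4 of 8, 3 of 5 and 3 of 7 genes at 0 in every sample. Stromal markers summed to 24.7 CPM in each siNTC sample and 40.3 to 49.0 CPM in the lines, mostly COL1A1, with 3 of 9 genes at 0. The neuroendocrine list reached 36.3 and 43.4 CPM in siNTC and 305 to 427 CPM in the lines. ENO2, which is also a glycolytic enzyme, gave nearly all of this in the lines, and 27.5 and 32.2 CPM of it in siNTC. Of the 13 genes of that list, 5 were at 0 in every sample. In bulk samples of this kind, fewer cells of a type and less RNA per cell cannot be told apart.

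EHMT1 itself was level between the groups. It stood at 82.1 and 77.4 CPM in siNTC and at 76.4, 84.3, 71.8 and 88.9 CPM in the WT, K450R, K451R and K450RK451R lines, the order in which line values are given below. The groups overlapped, and the log2 fold change of siNTC over the lines was -0.01 ± 0.10 (SE, adjusted p = 0.945). Its partner EHMT2, the related methyltransferase G9a, was lower in siNTC at 56.6 and 58.9 CPM than in the lines at 81.8, 87.6, 83.9 and 87.3 CPM (log2 fold change -0.56 ± 0.09, adjusted p = 1.39e-05). Of the 18 genes of EHMT1 and its partner complexes, 3 were higher in siNTC, 9 were lower and 6 were not called, with the largest difference in PHF21A, a subunit of the LSD1-CoREST complex (log2 fold change -1.53).

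Across all genes the control states were far apart. Of 14681 genes tested with edgeR's quasi-likelihood method, 8761 had a Benjamini-Hochberg adjusted p under 0.05, which is 59.7%. They were divided evenly, with 4416 higher in siNTC (30.1%) and 4345 lower (29.6%), and 1748 and 1752 of these differed at least 2-fold (11.9% in each direction). With no threshold on p, the 2 siNTC samples lay above all 4 lines for 34.6% of the genes and below them for 34% of the genes. The count of any gene list below has to be read against these shares. The median log2 fold change over all tested genes was -0.01. TMM scaling centres the bulk of genes near no change, so this median and the even division follow largely from the scaling. A shift shared by most genes would not be seen.

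**Figure D1:**
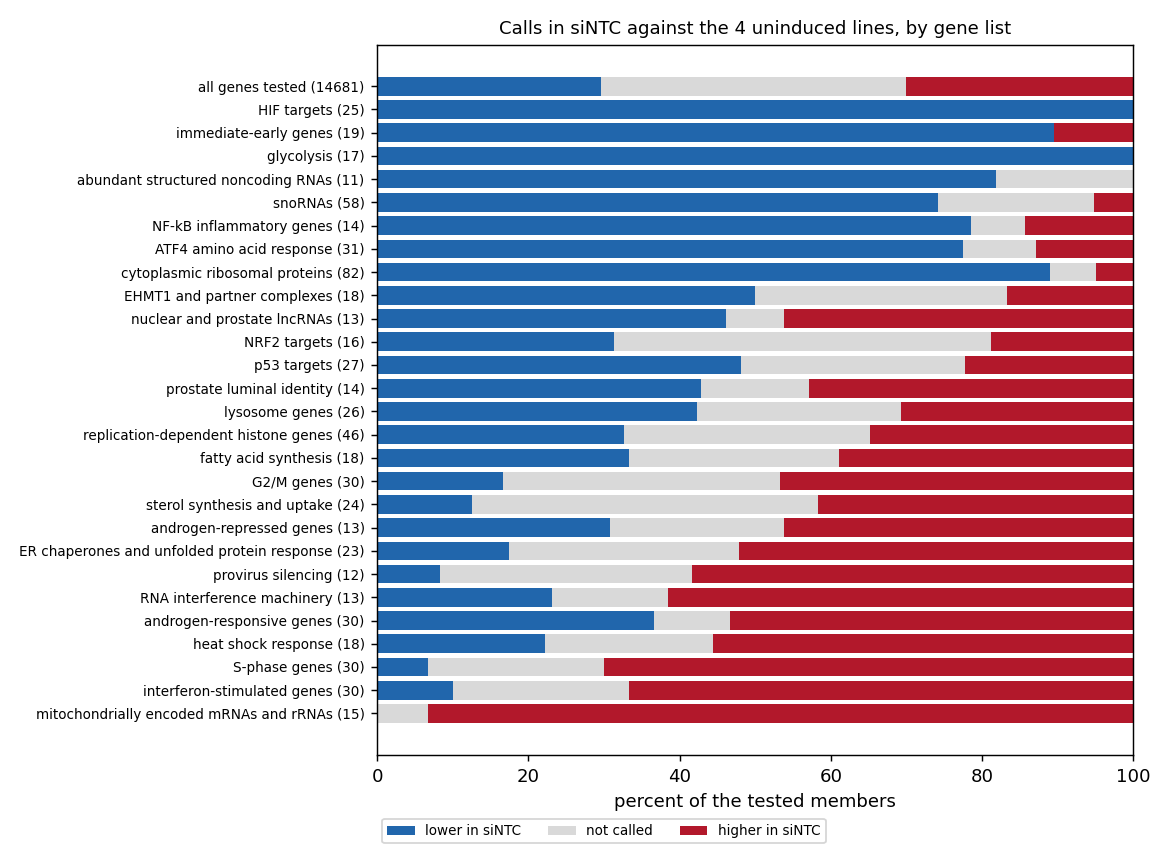
Share of the tested members of each gene list that were called lower in siNTC (blue), not called (grey) or called higher (red) against the 4 uninduced lines, at an adjusted p under 0.05, with the number tested in brackets and the 14681 genes tested in the top row. The rows below it run from the lowest to the highest list median, from the HIF targets, all 25 lower, to the mitochondrially encoded genes, 14 of 15 higher.

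HIF targets were lower in siNTC. All 25 members that passed the filter, of 27 listed, were called lower, against 29.6% of all genes, 24 of them at least 2-fold, with a median log2 fold change of -2.73. The list took 0.136% and 0.137% of all counts in siNTC and 1.04% to 1.14% in the lines. ANKRD37, an ankyrin-repeat gene known as a HIF-1 target, was at 5.04 and 5.12 CPM in siNTC and at 426, 322, 369 and 240 CPM in the lines (log2 fold change -6.06 ± 0.21, adjusted p = 9.43e-16). CA9, a carbonic anhydrase at the cell surface that is a common marker of hypoxia, was at 0.442 and 0.183 CPM against 15.3, 15.3, 11.2 and 13.6 CPM (log2 fold change -5.23). With 5 and 1 counts of CA9 in siNTC, the size of that fold is uncertain. VEGFA, the main angiogenic growth factor, was at 97.6 and 109 CPM against 1761, 1560, 1332 and 1194 CPM (log2 fold change -3.83 ± 0.14). In each of these genes the highest siNTC sample was far below the lowest line. Letters of the hypoxia response element, ACGTG or GCGTG on either strand, were sought in the 250 bases before the gene start. They occurred in 14 of the 19 members that were in the RefSeq promoter set searched, or 73.7%, against 43.1% of its 27195 promoters. Of the members with a match, the promoters of the 3 that differed most are printed 5′ to 3′ with the matches in capitals, since they show where these letters lie in genes that moved together. They are from RefSeq on GRCh38.p14, at chr4:185396591-185396840 (plus strand), chr9:35673678-35673927 (plus strand) and chr10:6144671-6144920 (plus strand), and CACGTG in ANKRD37 counts as overlapping matches of both strands.
ANKRD37: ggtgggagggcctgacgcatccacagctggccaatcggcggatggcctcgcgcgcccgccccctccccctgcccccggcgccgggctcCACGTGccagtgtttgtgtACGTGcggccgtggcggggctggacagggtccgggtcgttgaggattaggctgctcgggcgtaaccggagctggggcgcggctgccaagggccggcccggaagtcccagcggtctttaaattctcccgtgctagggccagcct
CA9: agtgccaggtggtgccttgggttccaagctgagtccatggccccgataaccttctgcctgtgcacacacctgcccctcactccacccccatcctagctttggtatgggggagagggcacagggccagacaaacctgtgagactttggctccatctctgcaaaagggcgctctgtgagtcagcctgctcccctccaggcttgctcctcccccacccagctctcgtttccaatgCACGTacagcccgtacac
PFKFB3: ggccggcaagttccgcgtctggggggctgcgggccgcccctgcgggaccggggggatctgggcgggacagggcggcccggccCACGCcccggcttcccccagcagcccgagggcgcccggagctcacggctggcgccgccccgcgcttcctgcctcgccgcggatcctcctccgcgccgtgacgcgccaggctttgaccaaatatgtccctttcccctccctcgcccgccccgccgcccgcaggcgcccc

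A match is a description of letters and not a binding site. PFKFB3 and PFKFB4, which make the activator of phosphofructokinase, the pacing enzyme of glycolysis, were at 41.9 and 39.0 CPM and at 36.8 and 48.0 CPM in siNTC. In the lines PFKFB3 was at 700, 646, 494 and 519 CPM, and PFKFB4 at 488, 538, 481 and 487 CPM. Collagen-modifying enzymes of the list were also lower in siNTC, with log2 fold changes of -3.65 for PLOD2, a lysyl hydroxylase, and -3.49 for P4HA1, a prolyl hydroxylase. So were BNIP3 and BNIP3L, receptors for the removal of mitochondria (-2.73 and -2.72), and the oxygen sensors EGLN1 and EGLN3, whose own genes are HIF targets (-1.92 and -1.58). The smallest difference was in CA12, a carbonic anhydrase, at 66.0 and 60.8 CPM against 94.4, 83.4, 81.5 and 85.9 CPM (log2 fold change -0.44 ± 0.09). KISS1R, the kisspeptin receptor, had 1 count in each siNTC sample, and gave a ratio of lines over siNTC of 23.2 with a 95% counting interval of 6.26 to 194. HILPDA, a lipid droplet protein induced in hypoxia, and BHLHE40, a transcriptional repressor of the circadian system, lay outside the list and were among the genes with the lowest log2 fold changes, -4.84 and -4.58.

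The HIF subunits, chosen after their values were seen, did not move together. HIF1A, the oxygen-regulated subunit of HIF-1, was higher in siNTC at 144 and 151 CPM than in the lines at 65.6, 78.1, 74.8 and 77.1 CPM (log2 fold change 1.00 ± 0.09, adjusted p = 2.65e-09). EPAS1, which encodes HIF-2α, was lower at 2.48 and 2.56 CPM against 8.62, 6.79, 7.54 and 7.51 CPM (-1.61 ± 0.27), and ARNT, their shared partner, was lower by a smaller amount (-0.68 ± 0.09). HIF-1 is regulated mainly as a protein, which was not measured.

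Glycolysis genes followed the same direction, and all 17 were lower in siNTC, 14 of them at least 2-fold, with a median log2 fold change of -2.0. They took 1.12% and 0.996% of the counts in siNTC and 4.27% to 5.0% in the lines. GAPDH, an enzyme in the middle of the pathway whose mRNA often serves as a reference in quantitative PCR, was at 2100 and 2113 CPM in siNTC and at 11550, 12160, 10240 and 10980 CPM in the lines (log2 fold change -2.41 ± 0.12, adjusted p = 1.6e-13). GPI, which acts on glucose 6-phosphate, was at 755 and 792 CPM against 6048, 6689, 5301 and 6349 CPM (log2 fold change -2.98). ENO2, the neuronal enolase, had the largest difference of the list (-3.59) and PFKM, the muscle form of phosphofructokinase, the smallest (-0.35). Some isoforms of one step differed in size, with HK2 at -2.55 and HK1 at -0.78, and LDHA at -2.01 and LDHB at -0.50. The aldolases ALDOA and ALDOC, the latter listed with the HIF targets, were closer, at -2.77 and -2.93. These pairs were chosen after values were seen. All 17 glycolysis genes also stayed lower after correction for GC content and, in a setting added after the data were seen, for exon length.

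**Figure D2:**
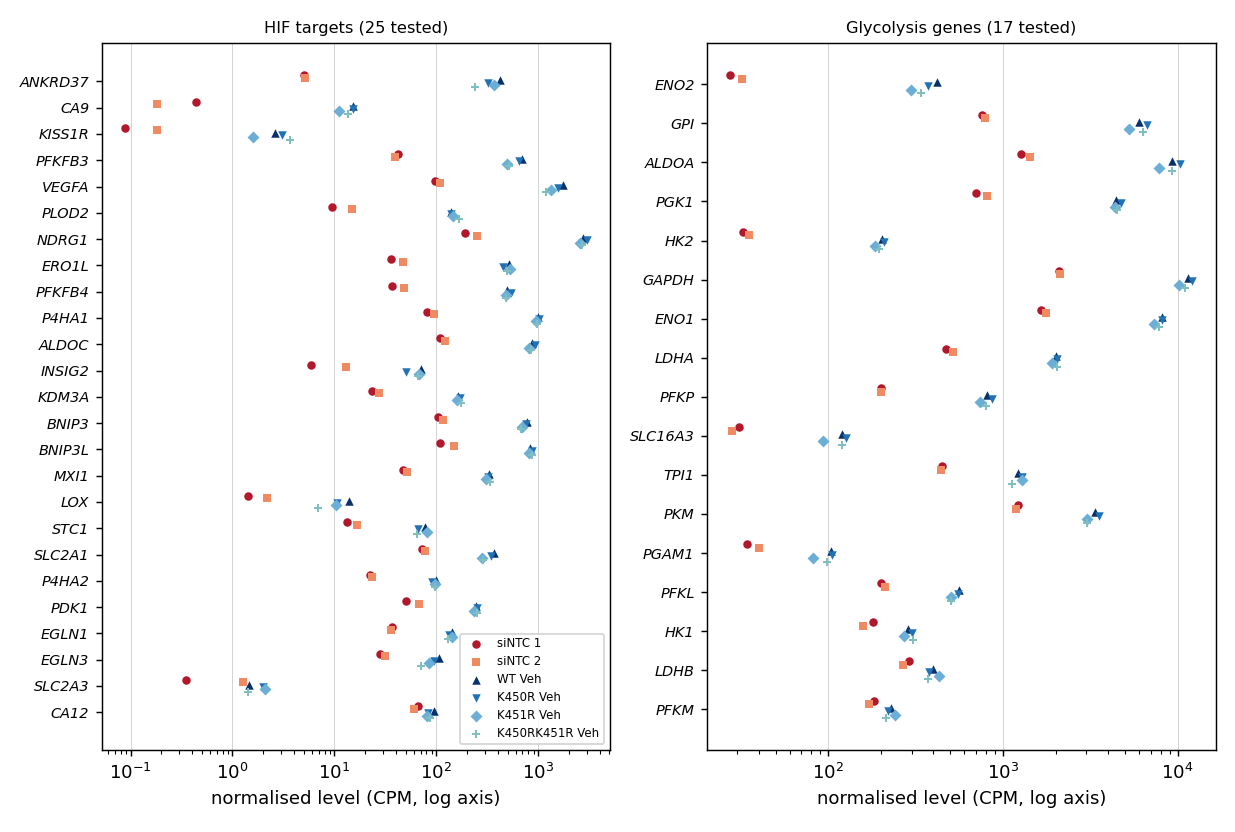
TMM-scaled CPM (log axis) of the 25 HIF targets and the 17 glycolysis genes tested, with 1 symbol for each of the 2 siNTC samples (red and orange) and the 4 uninduced lines (blues), spread slightly in height for legibility. In every row both siNTC symbols lie to the left of all 4 line symbols, from the widest gap in ANKRD37 (5.04 and 5.12 CPM against 240 to 426 CPM) to narrow gaps in CA12 and PFKM.

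Most immediate-early genes were lower in siNTC as well. Of 19 immediate-early genes tested, 17 were lower and 2 were higher, with a median log2 fold change of -2.10. DUSP1, a phosphatase that shuts off MAP kinases, was at 28.1 and 28.6 CPM in siNTC and at 512, 599, 454 and 453 CPM in the lines (log2 fold change -4.15 ± 0.12). JUND, a subunit of the AP-1 factor, was at 78.7 and 77.8 CPM against 1132, 1116, 952 and 970 CPM (-3.74). FOS, its classical partner, was at 6.98 and 11.3 CPM against 185, 120, 74.6 and 45.8 CPM, a wide range among the lines themselves. The 2 members that were higher were MYC, at 375 and 346 CPM against 106, 114, 135 and 142 CPM (log2 fold change 1.54 ± 0.10), and FOSB at low levels (3.54 and 2.01 CPM against 0.507 to 0.987 CPM). MYC, a growth-promoting transcription factor, thus went opposite to FOS, JUN and ATF3.

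The ATF4 amino acid response had 24 of 31 tested genes lower, 4 higher and 3 not called (median -0.86). ATF4 mRNA was at 142 and 127 CPM in siNTC against 538, 548, 516 and 500 CPM in the lines (log2 fold change -1.97 ± 0.09). DDIT3, the proapoptotic factor CHOP, was at 17.5 and 22.1 CPM against 431, 369, 401 and 336 CPM (-4.30), and GDF15, a secreted stress cytokine, at 654 and 687 CPM against 8469, 8577, 7000 and 7642 CPM (-3.56). DDIT4, an inhibitor of mTORC1 that hypoxia also induces, was at -3.67. ASNS, asparagine synthetase, was at -0.79, PHGDH, which begins serine synthesis, at -0.86, and PSAT1, the enzyme after it, was higher at 0.41. NF-κB inflammatory genes were lower for 11 of 14 tested and higher for 2, with NFKBIA, the inhibitor that NF-κB itself induces, at 77.0 and 81.8 CPM against 332, 272, 253 and 228 CPM (-1.77 ± 0.12). Among p53 targets, 6 of 27 were higher, 13 lower and 8 not called, with BBC3, the death protein PUMA, at -3.47, and C12orf5, which encodes TIGAR, at 2.81. Genes outside these lists that ranked lowest in siNTC were taken among called genes with a mean of at least 5 CPM, no overlap between groups and no clone name. They were SCNN1G, a subunit of the epithelial sodium channel (0.972 and 1.28 CPM against 90.4, 93.8, 61.7 and 84.5 CPM, log2 fold change -6.24 ± 0.23), MAFF, a small bZIP factor (-5.94), and CDKN1C, the cyclin-dependent kinase inhibitor p57 (2.03 and 2.75 CPM against 94.3, 98.9, 78.8 and 85.8 CPM, -5.28). TGFB1, a growth-inhibitory cytokine (-4.80), had 4 and 1 counts in siNTC, and CYP26A1, which degrades retinoic acid (-4.74), had 3 and 3. So few counts, near the floor, leave the size of these folds uncertain. GADD45B, a stress sensor (-4.56), and CXCR4, a chemokine receptor (-4.39), completed that set.

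Mitochondrially encoded transcripts went the other way. Of the 15 genes, 14 were higher in siNTC, against 30.1% of all genes, with a median log2 fold change of 2.54, and the remaining one, the small rRNA MT-RNR1, was not called at 10320 and 12610 CPM against 14170, 13240, 12450 and 12730 CPM. All 13 mRNAs were higher, at 1.36 for MT-ND6 to 5.13 for MT-ATP8 on the log2 scale. MT-CO3, a core subunit of cytochrome c oxidase, was at 1570 and 2033 CPM in siNTC and at 233, 222, 341 and 214 CPM in the lines (log2 fold change 2.84 ± 0.13, adjusted p = 1.11e-13). MT-CYB, the core of respiratory complex III, was at 187 and 228 CPM against 21.4, 14.8, 24.8 and 24.5 CPM (3.27). MT-ATP6, a subunit of ATP synthase, was at 83.4 and 114 CPM against 4.98, 4.69, 7.79 and 8.73 CPM (3.91). The large rRNA MT-RNR2 differed by less, at 180200 and 237200 CPM against 121100, 111500, 135200 and 109800 CPM (0.81 ± 0.19). Together the mitochondrial mRNAs took 0.459% and 0.50% of counts in siNTC and 0.0683% to 0.102% in the lines. Nuclear copies of mitochondrial sequence could share reads with these genes, and how the counting treated them is not given in the sources used here.

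The called genes that ranked highest in siNTC came from no single list. They were taken among genes with a mean of at least 5 CPM over the 6 samples, no overlap between groups and no clone name. PPARGC1B, a coactivator of mitochondrial biogenesis, was at 16.4 and 15.7 CPM against 1.01, 0.864, 2.07 and 3.96 CPM (log2 fold change 3.02 ± 0.32), and its relative PPRC1 at 66.9 and 65.3 CPM against 5.83, 8.02, 8.88 and 9.64 CPM (3.04 ± 0.14). MARS2, the mitochondrial methionyl-tRNA synthetase, was at 50.2 and 45.2 CPM against 5.74, 4.07, 3.53 and 4.47 CPM (3.40). TFAM, which packages and transcribes mitochondrial DNA, was chosen after its values were seen and was higher by 0.72 ± 0.10. PPP1R10, a nuclear regulator of protein phosphatase 1, was at 160 and 158 CPM against 12.9, 12, 11.9 and 17.9 CPM (3.54). DDX5, an RNA helicase, was at 336 and 334 CPM against 79.4, 76.8, 75.1 and 87.5 CPM (2.07 ± 0.08), and PEG3, an imprinted zinc-finger gene, at 1315 and 1182 CPM against 144, 224, 164 and 116 CPM (2.95). TRGC1, a constant gene of the T-cell receptor gamma locus, had the highest log2 fold change among genes that met these criteria (4.0), at 55.3 and 67.2 CPM against 3.46, 2.35, 4.14 and 5.18 CPM. Over all tested genes the highest was 7.40. SEMA6D, a semaphorin (3.46), NCOA5, a nuclear receptor coactivator (3.29), and URB2, a ribosome biogenesis factor (3.07), were the others.

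**Figure D3:**
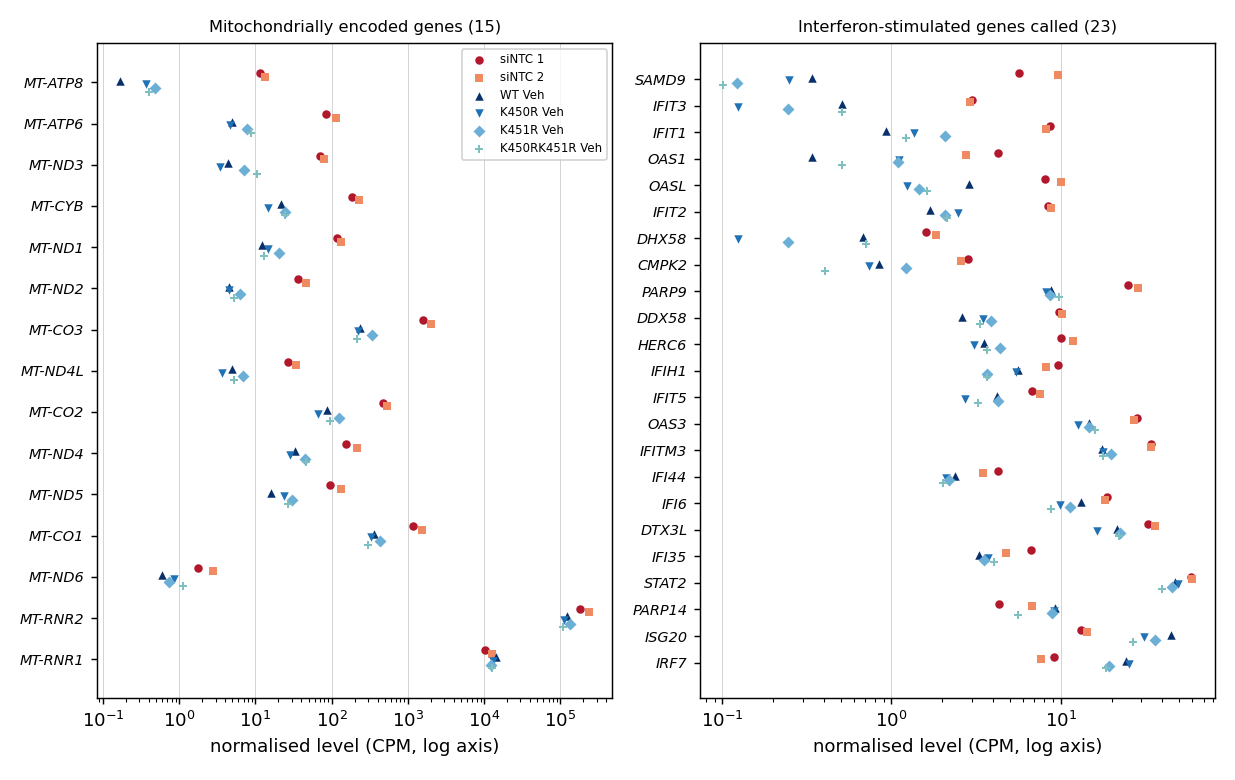
TMM-scaled CPM (log axis) of the 15 mitochondrially encoded genes and the 23 interferon-stimulated genes called in either direction, with 1 symbol per sample as in the plot of HIF targets, spread slightly in height. The siNTC symbols lie to the right of all lines in 14 mitochondrial rows, while MT-RNR1 overlaps, and in the interferon panel the rows of PARP14, ISG20 and IRF7 at the bottom go the other way.

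Interferon-stimulated genes were mostly higher in the transfected controls, at low levels. Of 30 tested members, of 40 listed, 20 were higher, 3 lower and 7 not called, with a median log2 fold change of 0.88. Without siNTC replicate 1, 15 were higher. SAMD9, an antiviral factor, was at 5.66 and 9.70 CPM in siNTC and at 0.338, 0.247, 0.122 and 0.101 CPM in the lines, or 4, 2, 1 and 1 counts (log2 fold change 5.03 ± 0.45, adjusted p = 2.3e-09). A member this low in the lines could pass the filter through the 2 siNTC samples alone, so its call was partly set by the filter. With no filter, 38 members were tested, 21 were higher and the list median was 0.71. IFIT1, which binds foreign RNA, was at 8.66 and 8.24 CPM against 0.929, 1.36, 2.07 and 1.22 CPM (2.64 ± 0.30), and IFIT3, its partner, at 3.0 and 2.93 CPM against 0.507, 0.123, 0.243 and 0.508 CPM (2.97). The RNA sensors DDX58 (RIG-I), DHX58 (LGP2) and IFIH1 (MDA5) were higher by 1.59, 1.80 and 0.97, but DHX58, with 1 to 8 counts in the lines, lost its call when either siNTC replicate was left out. Several canonical members were not called, among them ISG15 at 46.1 and 38.4 CPM against 42.0, 40.5, 42.2 and 37.5 CPM and MX1 (log2 fold change -0.13 ± 0.34). IRF7, a transcription factor of the response, ISG20, an exonuclease, and PARP14 were lower (-1.35, -1.35 and -0.63). The interferon-stimulated response element, on either strand, occurred in the promoter window of 14 of the 23 members that had one, or 60.9%, against 3.07% of all promoters. The same rule gave the sequences of chr7:93117980-93118229 (minus strand), chr10:89327747-89327996 (plus strand) and chr10:89392373-89392622 (plus strand), in that order, with the element in capitals.
SAMD9: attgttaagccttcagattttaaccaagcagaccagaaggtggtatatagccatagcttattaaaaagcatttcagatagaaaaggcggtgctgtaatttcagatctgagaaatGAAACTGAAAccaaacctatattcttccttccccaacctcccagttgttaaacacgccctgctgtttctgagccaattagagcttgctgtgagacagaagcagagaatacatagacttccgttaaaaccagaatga
IFIT3: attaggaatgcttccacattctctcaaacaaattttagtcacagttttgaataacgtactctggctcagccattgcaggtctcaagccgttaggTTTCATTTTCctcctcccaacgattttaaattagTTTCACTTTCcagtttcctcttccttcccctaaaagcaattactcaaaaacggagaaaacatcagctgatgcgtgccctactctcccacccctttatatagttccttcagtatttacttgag
IFIT1: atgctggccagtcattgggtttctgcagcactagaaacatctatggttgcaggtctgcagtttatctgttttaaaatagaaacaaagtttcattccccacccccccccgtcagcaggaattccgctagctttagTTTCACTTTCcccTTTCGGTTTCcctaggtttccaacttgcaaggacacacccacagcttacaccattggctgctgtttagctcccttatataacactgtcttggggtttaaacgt

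Genes of the microRNA and RNA interference machinery were also compared. Of 13, 8 were higher in siNTC, 3 lower and 2 not called. DGCR8, the partner of Drosha in microRNA processing, was at 36.6 and 40.5 CPM against 5.41, 6.05, 7.30 and 5.68 CPM (log2 fold change 2.66 ± 0.15). TNRC6A, a silencing scaffold that binds Argonaute, was at 62.3 and 64.1 CPM against 17.7, 21.2, 18.0 and 18.8 CPM (1.74), and DICER1 at 92.8 and 97.4 CPM against 35.6, 33.5, 36.6 and 36.5 CPM (1.42). The Argonautes differed among themselves, with AGO2, the one that cleaves, at 0.68 and AGO1, AGO3 and AGO4 at -0.33, -0.63 and -0.57.

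Heat shock genes had 10 of 18 members higher, 4 lower and 4 not called (median 0.65). HSPH1, a nucleotide exchange factor for HSP70, was at 115 and 113 CPM in siNTC against 20.9, 17.0, 23.4 and 19.5 CPM (log2 fold change 2.49 ± 0.11). HSPA8, the constitutive HSP70, was at 1900 and 1698 CPM against 687, 747, 689 and 732 CPM (1.33). The strictly inducible HSPA6 was lower, at 0.619 and 0.915 CPM against 15.5, 7.16, 7.54 and 2.84 CPM (-3.53 ± 0.63), and so was the small chaperone HSPB1 (-1.68). In the endoplasmic reticulum, 12 of 23 chaperone and unfolded-protein genes were higher and 4 lower, with SDF2L1, a co-chaperone, at 1.68. The heat shock element was in 3 of 16 promoter windows of the heat shock list and in 0.441% of all promoters.

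Cell cycle lists were less uniform, and the counts below stand against 30.1% of all genes higher and 29.6% lower. In the S-phase list 21 of 30 genes were higher, 2 lower and 7 not called, with a median log2 fold change of 0.78. CCNE2, a cyclin of the G1 to S transition, was at 17.5 and 19.6 CPM against 3.46, 3.33, 4.26 and 3.25 CPM (2.37 ± 0.20), and PCNA, the sliding clamp of DNA polymerase, at 197 and 183 CPM against 51, 59.7, 71.0 and 68.0 CPM (1.61 ± 0.10). RRM1 and CDT1 were the 2 lower members (-0.37 and -0.23). In the G2/M list 14 of 30 were higher, 5 lower and 11 not called, with a median of 0.12, and NEK2, a centrosome kinase, was among the lower ones (-0.88). Of 46 replication-dependent histone genes, whose transcripts lack the usual poly(A) tail, 16 were higher and 15 lower. These were near the shares of all genes, and the list median was 0.01. The provirus-silencing list had 7 of 12 higher and 1, SETDB1, lower (-0.32).

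Androgen-regulated genes were divided. Of 30 androgen-responsive genes tested, 16 were higher in siNTC, 11 lower and 3 not called. KLK3, which encodes prostate-specific antigen, was lower at 2759 and 2894 CPM against 7765, 8119, 7861 and 7354 CPM (log2 fold change -1.46 ± 0.10), together with KLK2 (-1.29) and TMPRSS2, a membrane protease (-1.39). PMEPA1, a feedback inhibitor of TGF-β signalling, was the highest of the list, at 206 and 193 CPM against 39.9, 36.9, 43.4 and 51.7 CPM (2.22). MAF, a bZIP factor, was at 55.8 and 49.4 CPM against 6.84, 8.89, 17.8 and 12.4 CPM (2.22). NDRG1, lowest of the list at -3.64, is also a HIF target, so the lists share it. Of 13 genes known to be repressed by androgen, 6 were higher and 4 lower, and the steroid glucuronosyltransferases UGT2B10, UGT2B15, UGT2B17 and UGT2B11 were higher by 3.88, 1.98, 1.78 and 1.76, and these near-identical paralogs can share reads.

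Of the other luminal markers, FOXA1, a pioneer factor of prostate epithelium, SLC45A3 (prostein), FOLH1 (prostate-specific membrane antigen) and GRHL2 were higher in siNTC (log2 fold changes 0.66, 0.84, 0.34 and 0.73), whereas the keratins KRT8 and KRT18 and E-cadherin, CDH1, were lower (-1.37, -0.91 and -0.40). HOXB13 and EPCAM were not called, at 371 and 373 CPM against 376, 405, 396 and 406 CPM for HOXB13. All 14 listed markers were expressed in every sample, and 6 were called higher and 6 lower.

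Lipid synthesis differed gene by gene. In the sterol list 10 of 24 genes were higher in siNTC, 3 lower and 11 not called, against 30.1% of all genes higher and 29.6% lower. INSIG1, which holds the sterol regulators back, was at 91.9 and 104 CPM against 440, 400, 386 and 348 CPM (log2 fold change -2.0 ± 0.10). FDFT1, squalene synthase, was lower as well (-0.50). INSIG2, listed with the HIF targets, was lower too (-2.87). For fatty acids 7 of 18 genes were higher and 6 lower, not far from the shares of all genes. ACLY, which supplies cytosolic acetyl-CoA, and SCD, the stearoyl desaturase, were lower (-1.43 and -1.29), and ELOVL6, an elongase, was higher (1.64). The sterol element TCACNCCAC was found in 1 of 18 promoter windows and in 0.879% of all promoters.

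Most structured noncoding RNAs and ribosomal protein mRNAs tested were lower in siNTC. Of 11 abundant structured RNAs tested, 9 were lower and 2 not called. RN7SK, which holds the elongation factor P-TEFb inactive, was at 6138 and 6949 CPM against 20200, 20130, 16250 and 16960 CPM (log2 fold change -1.49 ± 0.13), and RPPH1, the RNA of RNase P, at 7136 and 10110 CPM against 35720, 36190, 29260 and 31450 CPM (-1.94). Of 58 snoRNAs tested, out of 856 identifiers in the table, 43 were lower and 3 higher, but only 26 were lower without siNTC replicate 1. A snoRNA near the floor in siNTC could pass the filter through the lines alone. With no filter, 218 snoRNAs were tested and 45 were lower, and their median log2 fold change was -0.37 in place of -1.44. Among 13 nuclear and prostate lncRNAs, 6 were higher and 6 lower. The nuclear lncRNAs MALAT1 and NEAT1 were lower (-1.45 and -1.61), while PCAT1, a prostate cancer lncRNA, was higher (2.41) at 101 and 93.9 CPM against 23.9, 17.5, 17.1 and 14.1 CPM. Of 82 genes matched by the ribosomal protein pattern, 73 were lower (median -0.84), among them RPL3 at 572 and 577 CPM against 1172, 1278, 1174 and 1211 CPM (-1.07 ± 0.08). The 4 higher were RPL36A, RPL7L1, RPS26 and RPS27L. RPL7L1 and RPS27L are paralogs that are not standard ribosomal subunits, and RPL36A and RPS26 were at only a few CPM. Such short and multicopy genes can share reads with pseudogenes.

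The composition of the libraries differed as well. Genes annotated as long noncoding took 1.93% and 1.94% of counts in siNTC and 4.44% to 5.24% in the lines. Of this, RPPH1 alone took 0.819% and 0.988% in siNTC and 2.83% to 3.48% in the lines, and without it, a split made after the data were seen, the shares were 1.11% and 0.951% against 1.53% to 1.83%. Gene by gene, the 998 long noncoding genes tested had a median log2 fold change of 0.03, with 26.1% higher and 22.4% lower. Mitochondrial rRNA took 21.9% and 24.4% against 12% to 14.3%. Short and GC-rich genes also tended to be lower in siNTC. The median log2 fold change was 0.15 in the fifth of genes with the lowest GC content and -0.21 in the fifth with the highest, over the 98.2% of tested genes that had a value. In the fifth with the shortest exons it was -0.25, and in the longest 0.07. With the correction for exon length the snoRNA list had 29 members lower in place of 43, and a median of -0.88 in place of -1.44. Whether RNA isolation, rRNA depletion or library preparation contributed to the noncoding classes was not tested, and the experiment goes with the group.

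**Figure D4:**
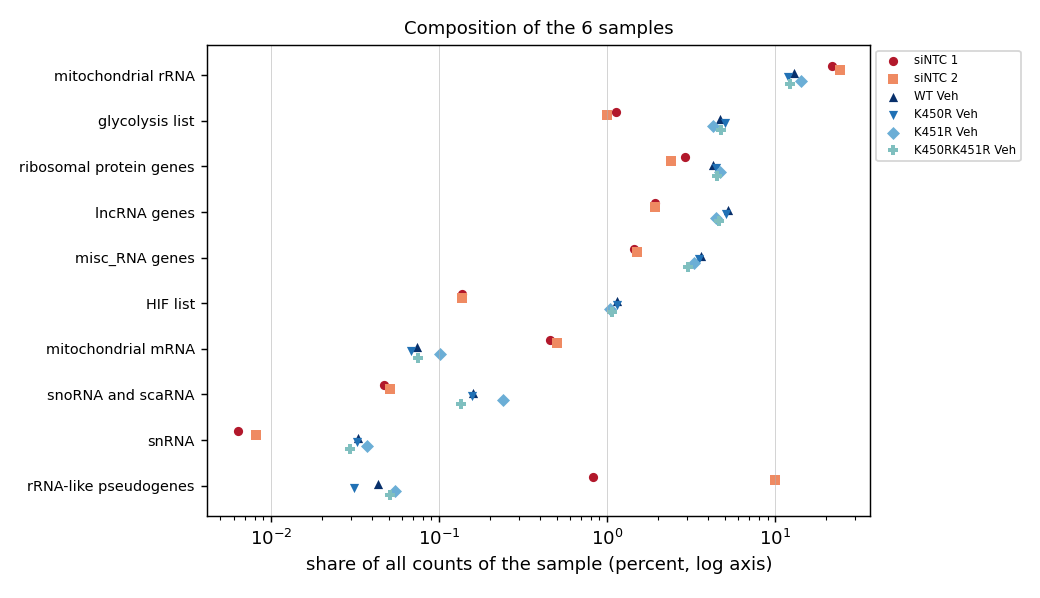
Percent of all counts of a sample (log axis) taken by 10 gene classes, with 1 symbol for each siNTC sample and each uninduced line. The siNTC symbols stand apart from the lines in every row, higher for mitochondrial rRNA and mRNA, lower for the HIF and glycolysis lists and the noncoding classes, and only the rRNA-like pseudogenes separate the 2 siNTC samples widely (0.820% and 10.0%).

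The lines were also taken one at a time against the mean of siNTC, with no test. The median log2 ratio of the HIF list was -2.73, -2.75, -2.65 and -2.76, that of glycolysis -2.01, -2.09, -1.89 and -2.01, and that of the interferon list 0.68, 0.98, 0.69 and 0.82. The mitochondrial list varied more, at 2.78, 2.95, 2.06 and 2.45, and the snoRNA list ranged from -0.93 to -1.72. Some lists with medians near 0 changed sign by line, such as the androgen-repressed genes at 0.22, 0.49, -0.27 and 0.45 and the nuclear and prostate lncRNAs at -0.32, -0.42, -0.48 and 0.21. Between the 2 siNTC samples the median difference was -0.35 for the mitochondrial list, -0.21 for the HIF list and closer to 0 for the glycolysis and interferon lists.

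The same difference between experiments was then measured in 6 samples that took no part above, the 2 siEHMT1 samples and the 4 lines after doxycycline. The siEHMT1 cells received 20 nmol/L of siRNA for 2 days, and the induced lines 0.25 μg/mL of doxycycline for 2 days. These samples come from the same experiments, so the factors named at the start go with these groups too. EHMT1 was at 28.5 and 29.9 CPM in siEHMT1 and at 838, 881, 761 and 693 CPM in the induced lines (log2 fold change -4.76 ± 0.13), so the siEHMT1 samples were low and the induced lines high, as labelled. Of 15232 genes tested, 8180 were called, which is 53.7%, with 4096 higher in siEHMT1 (26.9%) and 4084 lower (26.8%). In each direction 10.1% were called with at least a 2-fold difference, and with no threshold on p both siEHMT1 samples lay above all 4 lines for 32.7% of the genes and below them for 32.3%. Of the genes higher in siNTC, 76.2% were also higher here, which made up 82.2% of the genes higher in siEHMT1. Of those lower in siNTC, 79.8% were also lower here, or 84.9% of the genes lower in siEHMT1. Only 8 genes were called in opposite directions, and the one with the largest difference in the first comparison was NEAT1, the scaffold lncRNA of paraspeckles. NEAT1 was at 209 and 277 CPM in siNTC against 1123, 836, 671 and 335 CPM in the uninduced lines (log2 fold change -1.61 ± 0.27), and at 251 and 497 CPM in siEHMT1 against 266, 281, 186 and 258 CPM in the induced lines (0.60 ± 0.19). It was chosen after its values were seen, and the difference between the comparisons was not tested.

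List by list, the HIF targets had 23 of 25 tested members lower in siEHMT1 and 0 higher, with a median log2 fold change of -2.82, and CA12 and SLC2A3, a glucose transporter, were the 2 not called (-0.13 and -0.36). All 17 glycolysis genes were lower (median -2.10) and all 15 mitochondrially encoded genes were higher (2.90). The interferon list had 21 of 31 members higher and 2 lower (0.97), the immediate-early list 2 higher and 17 lower of 19 (-1.58), and the S-phase list 21 of 30 higher (0.76). ANKRD37 was at 8.65 and 6.52 CPM against 447, 233, 196 and 135 CPM (-5.07 ± 0.43), MT-CO3 at 2437 and 2601 CPM against 160, 270, 205 and 160 CPM (3.67 ± 0.15), and KLK3 at 2985 and 2837 CPM against 8750, 8321, 8096 and 7889 CPM (-1.50 ± 0.10). The snoRNA list was called less evenly, with 26 of 64 lower and 10 higher (-0.59). Some lists changed the sign of their median between the comparisons. Among them, the nuclear and prostate lncRNAs went from -0.28 to 0.56, with 8 of 14 higher and 2 lower in siEHMT1. The androgen-repressed genes went from 0.19 to -0.085, with 6 of 14 higher and 5 lower.

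**Figure D5:**
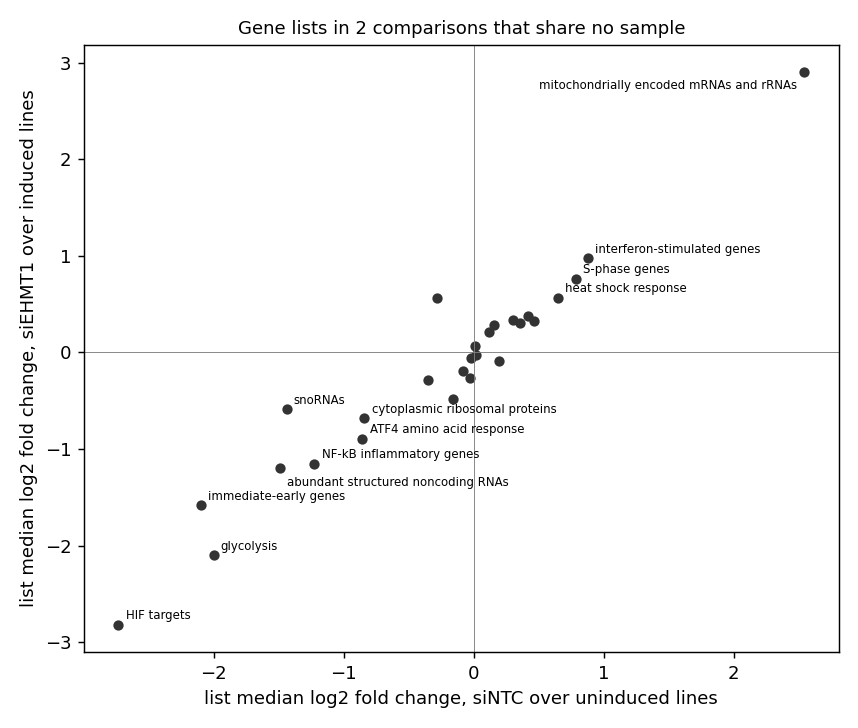
Median log2 fold change of 27 gene lists with at least 11 tested members, for siNTC over the uninduced lines (horizontal) and siEHMT1 over the induced lines (vertical), with 1 point per list. The comparisons share no sample, and the HIF targets (-2.73 and -2.82) and the mitochondrially encoded genes (2.54 and 2.90) lie at the opposite ends.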

How the data were processed

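The authors extracted total RNA, made libraries with the TruSeq stranded total RNA kit and sequenced 51-nucleotide single-end reads. Per the submitters' processing notes, FastQC 0.11.9, STAR 2.7.2 and featureCounts 1.6.4 were used on hg19 (GRCh37). The authors deposited raw counts per Ensembl gene in 2 tables, with no normalization. The annotation release and the strand setting are not given in the sources used here, so overlapping or antisense genes could share reads.

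Here the 8 columns of the uninduced lines were summed to 4 samples. Genes passing edgeR's filterByExpr were scaled by TMM and tested with edgeR 4.0.16 (quasi-likelihood, R 4.3.3) with Benjamini-Hochberg adjustment, calling at 0.05. A gene can pass this filter through one group alone, so calls of genes near the floor in the other group are partly set by it. The fit has 2 against 4 samples, and p-values measure the spread between these samples. No source states that the siNTC samples came from separate cultures. The script was also run on simulated counts with few changed genes and a single dispersion shared by all genes. That setting is far from these data, so it does not test the scaling or the calls made here. Positions and GC content came from GENCODE release 44 lifted to GRCh37, which held 55538 of 57773 identifiers, and promoters from RefSeq on GRCh38.p14. Promoters on chromosomes 8 and Y were left out of the motif search, also for list members. Depth was 5593400 to 12407739 counts per sample. The 95% Wilson intervals of the shares of counts were at most 0.0408 percentage points to each side and cover counting error only.

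The comparison, members and gene lists were chosen with earlier results of these data known. Named genes are the 12 highest and 12 lowest called log2 fold changes with a mean of at least 5 CPM over the 6 samples and no overlap between groups, the 5 highest and lowest with a mean of at least 100 CPM, EHMT1, EHMT2, the luminal markers, and the 3 called members of each list with the largest change (12 for the HIF, interferon, sterol and androgen lists). Genes with a clone name were passed over. Other list members and the hypoxia motif were chosen after values were seen. Lists got no set test. DESeq2 1.42.0, limma 3.58.1 (voom), other scalings, filters, GC and exon length corrections, separate columns and leaving out each sample were tried. Y-linked genes and XIST were left out of the text, and figures were drawn with matplotlib 3.10.9. The other lists not described above were drug efflux, lysosome, metallothionein, MAPK, NRF2, WNT and YAP genes. Some list members are counted in their lists and not reported here by name.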

Additional observations from a re-analysis of the deposited data

Results flagged for a closer look

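For 6 of the 131 named genes with a mean of at least 5 CPM in the lines, 1 of the 4 uninduced lines stood apart from the other lines by Dixon's test, against about 5% by chance. The K450RK451R line was high for PPP1R10 (17.9 CPM, others 11.9 to 12.9) and low for NEK2 (37.4 CPM, others 50.6 to 52.8). The K451R line was high for MT-CO3 (341 CPM, others 214 to 233) and low for ZBTB16 (114 CPM, others 131 to 133). The K450R line was high for PFKFB4 (538 CPM, others 481 to 488), and the WT line for CYR61 (7.60 CPM, others 4.01 to 4.57). The share of genes with a line apart was thus about that given by chance. In all 6 genes both siNTC samples stayed on the same side of all 4 lines. These genes were named for being called in this comparison, so that was largely set by the selection.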

How the results depend on the processing

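Across 20 alternatives, from 6074 to 9006 genes were called in siNTC against the uninduced lines, with between 48.7% and 52% of calls higher. Each scaling tried centres the bulk of genes, so this balance follows largely from the scaling. DESeq2 called 7998, limma-voom 8663 and edgeR without a filter 8875 of 27222. Leaving out 1 sample gave 6074 to 8909 calls (3107 to 4436 higher, 2967 to 4473 lower), lowest without siNTC replicate 1, where the lone replicate is assumed to vary like the lines. For siEHMT1 against the induced lines leave-one-out gave 5802 to 8193 calls (2893 to 4078 higher, 2909 to 4115 lower). Upper-quartile and RLE scaling moved the median of all genes by under 0.1, and HIF calls stayed between 24 and 26 and glycolysis calls at 17 in all alternatives. The snoRNA calls ranged from 26 to 45 when 1 sample was left out, and their median log2 fold change of -1.44 became -0.88 after the exon length correction and -0.37 with no filter, where 218 were tested in place of 58. Of 170 named genes, 21 lost their call under some alternative and 0 reversed. In the first comparison EPHA2, MT1G and SYP were the least stable, each with 7 or 8 losses. With 10 separate columns 9006 genes were called, and 8846 with the replicate block. The numbers did not pair the columns (correlations of their deviations -0.035 to 0.03), and no call is read from that fit. Depth limits genes under about 0.5 CPM.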

Other observations

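The lists not described above showed mixed calls, to be read against the 30.1% of all genes higher and 29.6% lower. The share of lysosome genes higher and of NRF2 targets lower was close to these. Of 26 lysosome genes 8 were higher in siNTC, 11 lower and 7 not called. Of 16 NRF2 targets 3 were higher and 5 lower, and the lower ones included both subunits of ferritin, the iron store, FTH1 (106 and 85.7 CPM against 462, 425, 444 and 448 CPM, log2 fold change -2.21 ± 0.09) and FTL (-1.58). HMOX1, heme oxygenase, was lower as well (-1.15). Of 5 metallothionein and zinc genes tested, 3 were lower, led by MT2A at 32.3 and 28.6 CPM against 107, 94.8, 90.5 and 109 CPM (-1.72). MAPK feedback genes had 1 higher and 3 lower of 7, with DUSP5 at -2.82 and CCND1, cyclin D1, at -1.01. YAP and cell density genes had 3 higher and 5 lower of 10, and CYR61, a matricellular target of YAP, was at -1.19. WNT feedback genes had 3 higher and 1 lower of 8, and the efflux transporters 1 each of 4. NOTUM, a WNT inhibitor, had 2 counts in siNTC, and its ratio of lines over siNTC was 8.17 with a 95% counting interval of 2.11 to 69.9.

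HES6, a neuronal bHLH factor that androgen represses, was lower at 46.3 and 50.0 CPM against 245, 168, 172 and 148 CPM (log2 fold change -1.93 ± 0.15), opposite to the steroid glucuronosyltransferases of the same list. TSC22D3, a glucocorticoid-induced leucine zipper gene, was lower at 29.2 and 29.7 CPM against 184, 211, 205 and 161 CPM (-2.69). ZBTB16, a zinc-finger factor that steroid hormones induce, was lower too (-1.64), whereas FKBP5, another steroid-induced gene, was higher (0.46).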
